A study of Mus musculus with 6 samples.

Results

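Ribosomal protein genes were described as a group in 6 mouse samples, separately for the cytosolic ribosome, which translates nuclear mRNAs, and the mitochondrial ribosome, which translates the few mRNAs made from mitochondrial DNA. Members were chosen by gene symbol alone: Rpl or Rps followed by a number, with Rplp0, Rplp1, Rplp2 and Rpsa, made up the cytosolic class, and Mrpl or Mrps followed by a number made up the mitochondrial class. Symbols of Rps6k kinases and names with -ps were left out, and a gene entered through probe sets annotated to that gene alone. This gave 67 cytosolic and 68 mitochondrial members among 22180 genes measured in this way. The cytosolic members comprised 39 large-subunit genes, 3 stalk genes and 25 small-subunit genes, and the mitochondrial members 43 large-subunit and 25 small-subunit genes.

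RNA was hybridised to Affymetrix Mouse Gene 2.0 ST arrays, which carry several short probes per transcript, starting from 300 ng of total RNA per sample. Each of the 6 groups was 1 library on 1 array. All came from the DBA/2J strain and were labelled female. The groups were undifferentiated induced pluripotent stem (iPS) cells grown on feeder cells in serum with LIF, 3 cultures differentiated from iPS cells and collected at day 7, cardiomyocytes of neonatal mice, and cardiomyocytes derived from adult mouse heart. In the cultures, cells formed embryoid bodies during 5 days in suspension and were then plated on gelatin with 1% DMSO, with 100 ng/ml NRG-1 (neuregulin-1, a ligand of ErbB receptors), or with both. No untreated differentiated culture was among the samples. The design compared the differentiated cultures and the cardiomyocytes with iPS cells, the agents with each other, and adult with neonatal cells. With 1 library per group no difference could be tested, so every value below describes these libraries and none carries an error between replicates.

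The labels were checked against marker genes. The mean log2 value of 9 pluripotency markers was 9.36 in iPS, against 5.47 to 5.67 in the cultures and 4.63 to 4.79 in the heart libraries. The mean of cardiomyocyte markers did not set the adult library apart from iPS. Over 15 such genes it was 5.41 in adult, 5.48 in iPS, 6.64 in neonatal and 6.74 to 7.07 in the cultures. From iPS to adult, 6 of these genes were higher and 9 lower, where 51.3% of all genes were lower. Tnnt2 had the largest rise, 1.87, while Myh6, the alpha heavy chain of cardiac myosin, was at 5.05 in adult and 5.82 in iPS. The mean of 11 fibroblast markers was 10.3 in neonatal and 10.7 in adult, against 6.50 in iPS and 7.85 to 8.31 in the cultures, and the mean of 7 epithelial markers was 10.5 to 10.6 in the cultures against 7.51 in iPS. The Y-linked genes Eif2s3y, Kdm5d and Uty were between 6.17 and 8.15 in the neonatal and adult libraries, which goes against their label as female, and at or below 4.06 elsewhere. Xist, transcribed from an inactive X chromosome, was highest in neonatal at 8.78 and lowest in adult at 3.39, against 5.97 in iPS and 6.49 to 6.91 in the cultures, so the neonatal library held both Y-linked and Xist signal and the adult library Y-linked signal alone. Pluripotency and fibroblast markers moved with every comparison with iPS, with list medians from -5.83 to -3.59 and from 1.11 to 4.50, and their part in the results was not tested. Between the cultures given both agents and DMSO alone, the medians of the pluripotency, cardiomyocyte, fibroblast and epithelial lists lay between -0.11 and 0.06. Lists of endothelial, macrophage and smooth muscle markers were at 0.10, 0.09 and 0.13. Between NRG-1 alone and DMSO alone the medians of the first 4 lists spread from -0.47 for fibroblast and -0.28 for cardiomyocyte markers to 0.13 for epithelial ones. The mean of 6 endoderm markers was 5.73 in iPS and 9.52 to 10.1 in the cultures. Their median was 0.57 between NRG-1 and DMSO. The part of these markers in the differences between the agents was not tested. In adult minus neonatal the medians of the marker lists ran from -0.93 for cardiomyocyte to 1.24 for macrophage markers. Their part in the differences between the heart libraries was not tested either.

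A cytosolic ribosome carries 1 copy of nearly every one of its proteins. Many of their mRNAs begin with a pyrimidine tract at the cap that lets mTOR signalling set their translation. The mitochondrial ribosome has its own set of nuclear-encoded proteins, builds only inner membrane subunits of oxidative phosphorylation, and is abundant in heart muscle. Promoters of both classes are rich in short motifs for factors such as GABP, an ETS factor, NRF1 and YY1.

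RefSeq windows from 250 bases before to 50 bases after a transcription start (build GRCm38.p6) were found for 52 cytosolic members (61 windows) and 59 mitochondrial members (65 windows). In a window, a pyrimidine tract was counted where a C followed by at least 4 bases of C or T began within 3 bases of the start on the transcribed strand. It was present in 32.8% of cytosolic, 13.8% of mitochondrial and 11.5% of all 32851 windows. The ETS core CCGGAAG, on either strand, was in 37.7% of cytosolic and 30.8% of mitochondrial windows against 8.86% of all. The NRF1 motif GCGCANGCG was in 16.4% and 20.0% against 6.25%, the YY1 motif AAGATGGCG in 3.28% and 10.8% against 1.40%, and ACTACAANT in 1.64% and 6.15% against 1.49%, all on either strand. The CCAAT box was in 24.6% of cytosolic and 40.0% of mitochondrial windows against 37.4% of all. These are letter matches, not measured binding.

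For the motifs other than the CCAAT box, members of wide range over the libraries with a match near the start are shown, together with Rpl10l, a member with none of these motifs in the stretch shown. Each line runs from 100 bases before the start to 15 bases from it. Capitals mark the pyrimidine tract in Rpl27a (chr7:109519095-109519209, plus strand) and Rps23 (chr13:90923022-90923136, plus), and the ETS core in Rpl39l (chr16:10170128-10170242, plus) and, in reverse orientation, Mrps27 (chr13:99344686-99344800, plus). They mark the NRF1 motif in Mrpl45 (chr11:97315616-97315730, plus), the YY1 motif in reverse orientation in Mrpl36 (chr13:73330909-73331023, plus) and ACTACAANT in Mrpl42 (chr10:95501935-95502049, minus). Rpl10l (chr12:66284387-66284501, minus) has no capitals.
Rpl27a: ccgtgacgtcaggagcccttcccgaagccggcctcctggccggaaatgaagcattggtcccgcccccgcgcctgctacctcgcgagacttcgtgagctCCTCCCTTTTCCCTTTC
Rps23: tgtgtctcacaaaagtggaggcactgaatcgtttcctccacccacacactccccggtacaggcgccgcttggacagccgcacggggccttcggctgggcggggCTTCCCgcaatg
Rpl39l: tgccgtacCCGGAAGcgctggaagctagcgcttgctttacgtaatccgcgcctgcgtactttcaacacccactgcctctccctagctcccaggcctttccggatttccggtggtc
Mrps27: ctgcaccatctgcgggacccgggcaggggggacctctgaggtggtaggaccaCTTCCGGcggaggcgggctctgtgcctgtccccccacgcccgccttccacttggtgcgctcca
Mrpl45: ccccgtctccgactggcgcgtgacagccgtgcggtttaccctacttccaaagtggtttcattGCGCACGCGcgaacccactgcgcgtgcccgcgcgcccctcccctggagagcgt
Mrpl36: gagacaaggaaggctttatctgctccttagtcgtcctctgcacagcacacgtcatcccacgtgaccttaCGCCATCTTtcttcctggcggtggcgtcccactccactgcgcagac
Mrpl42: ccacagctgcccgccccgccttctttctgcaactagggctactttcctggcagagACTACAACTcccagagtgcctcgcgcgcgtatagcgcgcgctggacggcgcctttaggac
Rpl10l: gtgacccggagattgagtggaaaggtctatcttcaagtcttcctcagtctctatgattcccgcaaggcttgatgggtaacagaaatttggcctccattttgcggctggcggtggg

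Both classes had their highest values in the iPS library. Of members with a value at or above 5.20, the median of all log2 values, in at least 1 library, 44 of 65 cytosolic (67.7%) and 45 of 67 mitochondrial members (67.2%) were highest in iPS, against 30.3% of the 14579 genes that passed the same filter. No member of either class was lowest in iPS, where 25.8% of all genes had their lowest value. The lowest library was spread over the others for cytosolic genes, with 20 members lowest in the culture given both agents (30.8%, against 9.39% of all genes). For mitochondrial genes the adult library held the lowest value of 23 members (34.3%, against 19.0%). RNA of whole samples does not tell fewer cells of a type from less RNA per cell.

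**Figure D1:**
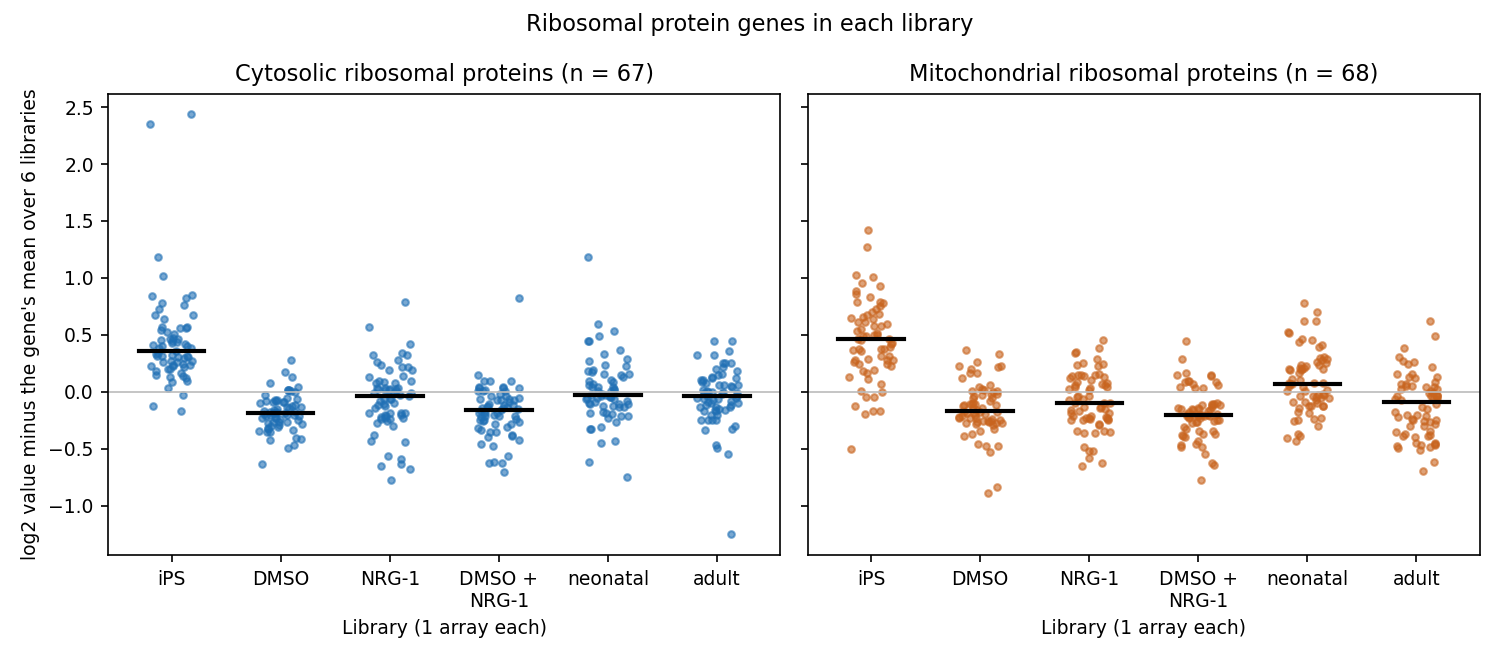
Each point is 1 gene, plotted as its log2 value minus that gene's mean over the 6 libraries (vertical axis) for each library of 1 array (horizontal axis), with a black bar at the median, for 67 cytosolic (left) and 68 mitochondrial (right) genes. The iPS points lie mostly above 0 in both classes, and the other 5 libraries lie close together.

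The range of a gene is its highest minus its lowest log2 value. Over the 6 libraries it had a median of 0.67 on the log2 scale in cytosolic members that passed the filter and 0.83 in mitochondrial ones, against 0.99 over all genes that passed. Without the filter, which few members but many dim genes fail, the medians were 0.67, 0.82 and 0.78, so only the cytosolic range was narrower than that of all genes both ways. The range reached 2-fold in 17 of 65 cytosolic and 27 of 67 mitochondrial members, and in 49.3% of all genes. The narrowest ranges were those of Rps18 (0.25), a small-subunit protein, Rpl28 (0.28) and Rps6 (0.28), the S6 kinase substrate, which was between 12.90 and 13.18 in every library. Among mitochondrial genes Mrpl48 had the narrowest range, 0.33.

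**Figure D2:**
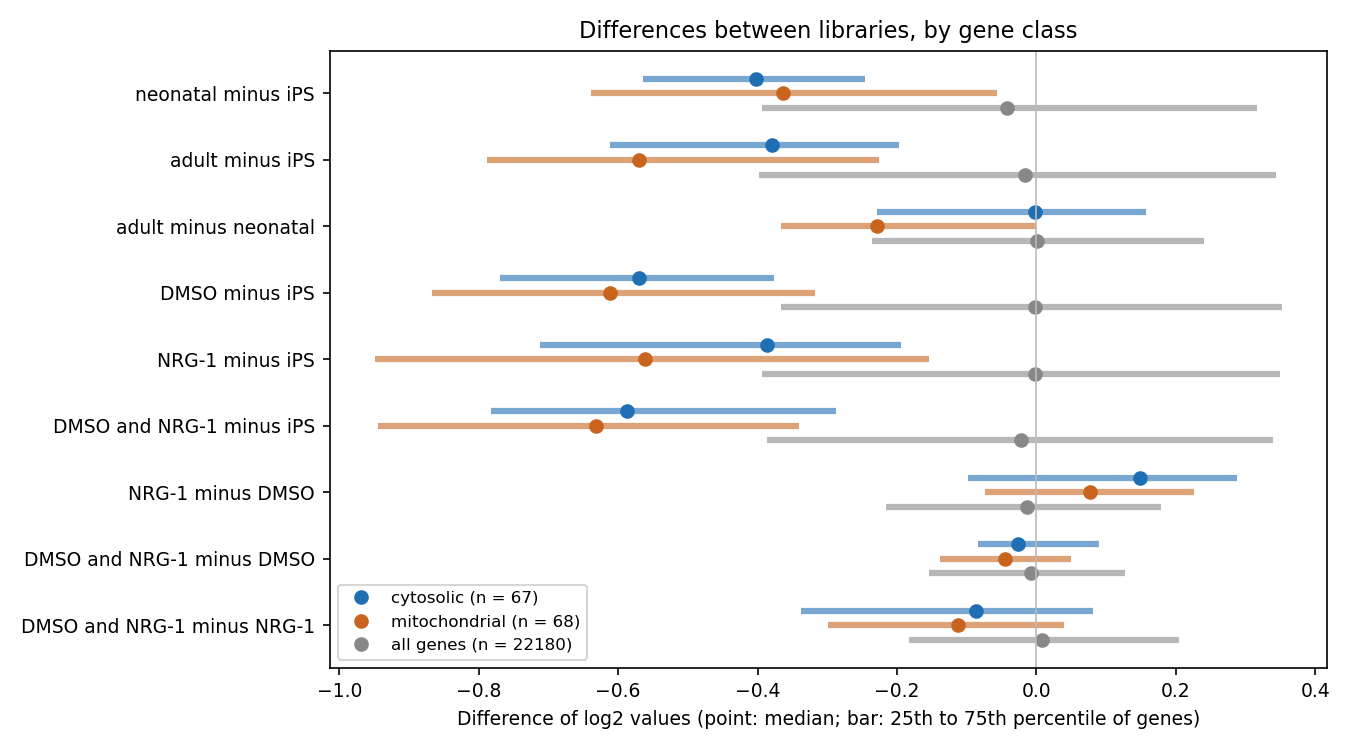
Points give the median difference of log2 values in each of 9 comparisons, and bars run from the 25th to the 75th percentile of genes, for cytosolic members (n = 67), mitochondrial members (n = 68) and all genes (n = 22180). Both class medians lie below that of all genes in the 5 comparisons with iPS, although shifting libraries to equal housekeeping medians turns the mitochondrial median of neonatal minus iPS, and both class medians of NRG-1 minus DMSO and of the culture with both agents minus NRG-1, as it moves all genes.

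In the DMSO culture compared with iPS, 63 of 67 cytosolic and 61 of 68 mitochondrial members were lower, where 50.2% of all genes were. The median difference was -0.57 for cytosolic and -0.61 for mitochondrial members, against -0.002 for all genes, which put the classes 1.48-fold and 1.52-fold below the middle of all genes. At 2-fold the classes were near all genes: 7 of 65 cytosolic and 9 of 67 mitochondrial members that passed the filter were at least 2-fold lower, where the background was 13.3% of genes, and no member of either class was 2-fold higher (13.1% of genes). At 1.5-fold, 31 of 65 and 38 of 67 were lower, against a background of 24.1%. Most members thus lay slightly below iPS, while the share past 2-fold lower was that of all genes or less. With the libraries shifted to equal medians of 19 housekeeping genes, 4 members of each class were 2-fold apart in either direction. Among the mitochondrial ones was Mrpl27, then 1.28 higher than in iPS. The share of all genes was not computed under that shift.

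In the NRG-1 culture compared with iPS, 56 of 67 cytosolic and 56 of 68 mitochondrial members were lower (50.1% of all genes), with medians of -0.39 and -0.56. At least 2-fold lower were 8 of 65 cytosolic and 15 of 67 mitochondrial members, where 14.5% of genes were. With both agents, 63 and 62 members were lower (51.9% of all genes), with medians of -0.59 and -0.63, and 8 of 65 and 14 of 67 were at least 2-fold lower (13.1% of genes). The 3 comparisons share the iPS library, so a departure of that array enters all of them. The mitochondrial counts in the NRG-1 and combined cultures stood above the background share, and the cytosolic counts were near it. With equal housekeeping medians, 8 mitochondrial members of the combined culture were 2-fold apart in either direction, among them Mrpl27 at 1.22 higher. The same count was 16 for the NRG-1 culture. The share of all genes was not computed under that shift, so whether the excess depends on the scaling cannot be told.

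The heart libraries lay below iPS too. Neonatal cells had medians of -0.40 for cytosolic and -0.36 for mitochondrial members, against -0.04 for all genes, with 58 of 67 and 53 of 68 members lower (53.6% of all genes). At least 2-fold lower were 5 of 65 and 4 of 67, below the background of 11.2%. In adult cells the medians were -0.38 and -0.57, with 61 of 67 and 60 of 68 members lower (51.3% of all genes), and 5 of 65 cytosolic and 12 of 66 mitochondrial members were at least 2-fold lower, against 14.1% of genes. These differences are relative to the other genes on the same array: with the same shift to equal housekeeping medians, the median of all genes became 0.34 in neonatal minus iPS, 0.17 in adult minus iPS and 0.40 in DMSO minus iPS, and the class medians moved with it. Under that shift the mitochondrial median of neonatal minus iPS turned to 0.024, and the other class medians of the comparisons with iPS stayed below 0. The size of the shift was uncertain. From iPS to neonatal the median level of the 19 housekeeping genes changed by -0.39, whereas the median of their own differences was -0.18. These 2 values were -0.19 and -0.09 for adult and -0.40 and -0.17 for DMSO. With the shift, the count of members 2-fold apart in either direction became 1 mitochondrial member in neonatal minus iPS. That member was Mrpl27, 1.12 higher than in iPS, so no mitochondrial member was then 2-fold lower. In adult minus iPS the count became 3 cytosolic members. For neither comparison was the share of all genes computed under the shift.

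Between adult and neonatal cells the cytosolic median was -0.002, beside 0.0004 for all genes, and its sign turned under other settings, so no direction is given. The mitochondrial median was -0.23, with 51 of 68 members lower in adult, where 49.9% of all genes were. By brightness, the 51 mitochondrial members with a mean between 7 and 10 had a median of -0.22, against -0.10 for all genes of that brightness and 0.02 for 24 cytosolic members. Below a mean of 7, both classes were lower, at -0.26 over 17 mitochondrial and -0.15 over 23 cytosolic members, against 0.04 for all genes, and the 20 cytosolic members of at least 10 were at 0.12. Only Mrpl35 passed 2-fold lower, as 1 of 67 (2.92% of genes), and it no longer passed under cyclic loess, at -0.92. Of 64 cytosolic members 2 passed, Rpl29 and Rps4l, and Rpl29, at -1.48, was at 0.10 by its brightest probe set. The mitochondrial large subunit had a median of -0.23 and the small subunit one of -0.17.

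The differences were also read by brightness. For DMSO minus iPS the cytosolic median was -0.49 over 20 members with a mean of at least 10, -0.61 over 24 members between 7 and 10 and -0.63 over 23 below 7, against 0.07, -0.01 and -0.002 for all genes in these classes. Mitochondrial members, none of which reached 10, had -0.66 over 51 members and -0.61 over 17. In this comparison, lower values than in iPS were thus measured in bright and dim members alike. In adult minus iPS the cytosolic medians were -0.25, -0.39 and -0.58 from bright to dim, so dim members lay further below. All genes were at -0.01, -0.09 and -0.001 there, and mitochondrial members at -0.56 and -0.58.

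Among the large-subunit and small-subunit proteins that every ribosome holds, the widest ranges were those of Rpl29, Rps26, Rpl27a and Rpl37a. Rpl27a, whose tract is shown above, was dim, at 6.07 in iPS, 4.63 with DMSO, 4.27 with NRG-1, 4.34 with both, 5.58 in neonatal and 5.41 in adult. The cultures were lowest, under the median of all values, and the heart libraries between them and iPS. A far brighter probe set annotated to Rpl27a and Gm13981 stayed between 12.32 and 12.67, so the wide range rests on 1 dim probe set. Rpl37a was lowest with both agents, at 7.32 in iPS, 6.12, 6.50 and 5.91 in the DMSO, NRG-1 and combined cultures, 6.57 in neonatal and 6.42 in adult. The brighter probe set that Rpl37a shares with Mir682 was at 11.40 in iPS, 11.48 with NRG-1 and 10.94 to 11.08 elsewhere, a narrower range with NRG-1 highest. Rps23, a protein of the decoding centre, was at 7.84 in iPS, between 6.58 and 6.85 in the cultures, 7.26 in neonatal and 7.20 in adult. Rpl5, which carries the small rRNA of the large subunit and binds Mdm2, was highest in iPS at 7.25 and lowest with NRG-1 at 5.92. The brighter probe set it shares with Rpl5-ps2 had another order, at 8.81 in iPS and highest with NRG-1 at 9.91, so the order of Rpl5 is uncertain.

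Rps26, at the exit of the mRNA channel, showed how far probe sets of 1 gene can disagree. The gene mean was 8.96 in iPS and 7.16 to 7.94 elsewhere, 1.58 lower with DMSO than in iPS. Its brighter probe set was at 12.26 in iPS and 11.85 with DMSO, a difference of -0.41, whereas its dimmer one was at 5.66 and 2.91, a difference of -2.75. Rpl29, a heparin-binding protein of the large subunit, was highest in neonatal at 11.46 and at 9.60 to 10.61 elsewhere. That peak came from 1 probe set, at 9.76 in neonatal and 6.16 to 7.85 elsewhere, while the other stayed between 13.04 and 13.36. For both genes the gene mean is therefore uncertain.

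**Figure D3:**
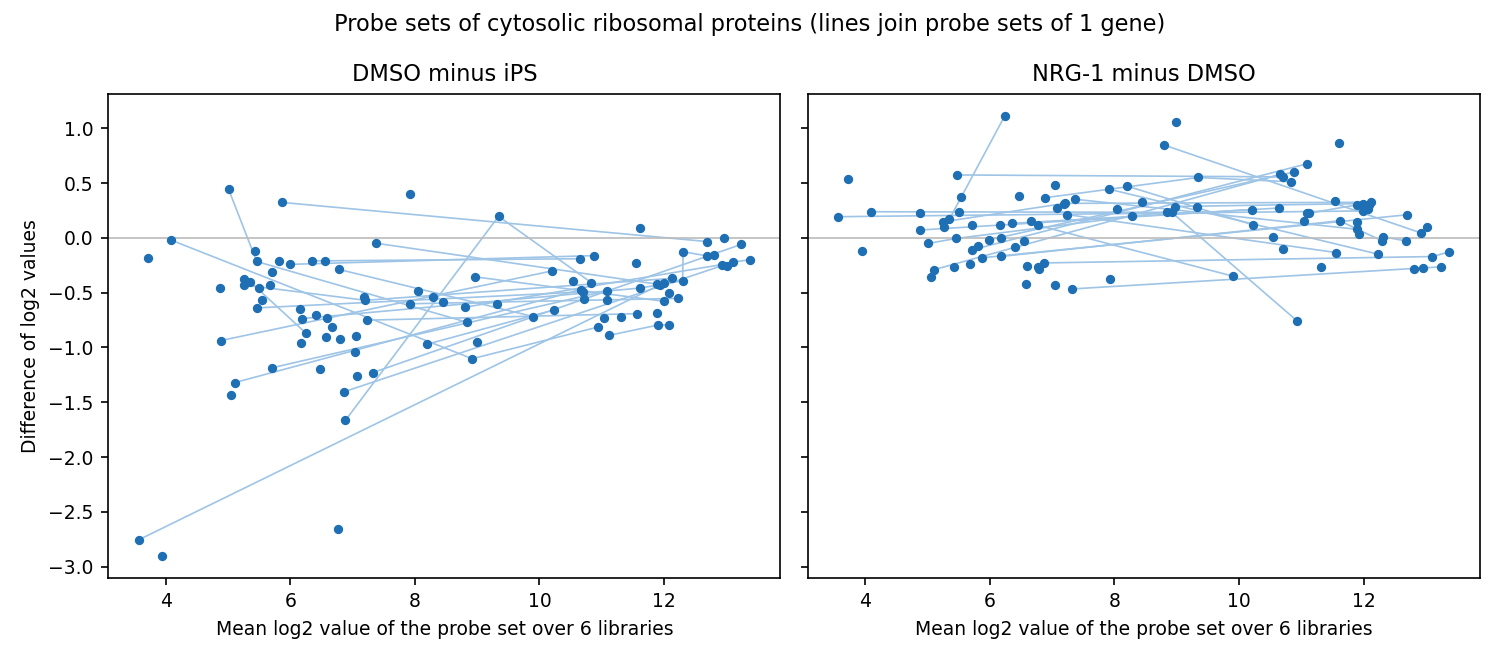
Each point is 1 probe set of a cytosolic member, with its mean log2 value over the 6 libraries on the horizontal axis and its difference of log2 values on the vertical axis, for DMSO minus iPS (left) and NRG-1 minus DMSO (right), and lines join probe sets of 1 gene. Most points lie below 0 on the left, and the line that drops to -2.75 belongs to Rps26.

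Over the 24 cytosolic genes with several distinct probe sets, the standard deviation between probe sets within a gene was 0.52 for DMSO minus iPS. Their probe sets had opposite signs in 3 genes for DMSO minus iPS and in 11 for NRG-1 minus iPS. RefSeq names pseudogenes of 49 cytosolic and 4 mitochondrial members, so probes of the cytosolic class can share sequence with other loci, and how the array's annotation split such signal was not tested.

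The stalk proteins, which recruit the elongation factors, did not share one order. Rplp0 was at 8.75 in iPS and 8.13 to 8.40 elsewhere, so all 5 libraries were lower. Rplp1 was at 10.38 in iPS, 9.80, 9.95 and 9.59 in the DMSO, NRG-1 and combined cultures, 10.20 in neonatal and 10.51 in adult. Rplp2 was dim, at 5.36 in iPS, 4.98 to 5.09 in the cultures, 5.71 in neonatal and 5.37 in adult. Rpsa, the laminin-binding protein of the small subunit, was at 9.78 in iPS, 8.97 to 9.10 in the cultures, 9.89 in neonatal and 9.58 in adult. Rplp1, Rplp2 and Rpsa were thus lowest in the cultures, with neonatal or adult cells near iPS.

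Paralogs, genes related by duplication to the gene of a ribosomal protein, held the widest differences of the cytosolic class. Rps4l, which RefSeq lists as a transcribed pseudogene, was at 9.13 in iPS, 6.47 with DMSO, 6.21 with NRG-1, 6.73 with both, 6.58 in neonatal and 5.52 in adult, so the iPS value lay 2.39 to 3.60 above the others. Rps4x, the X-linked gene of the same family, was at 11.50 in iPS and 10.72 to 11.24 elsewhere. Rpl10l, a retrogene known for replacing X-linked Rpl10 in male meiosis, was at 6.39 in iPS and between 3.36 and 3.57 in the other 5 libraries. Those 5 values were below the median of all values.

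Rpl39l, a paralog of the exit tunnel protein Rpl39 that is known from testis, was at 7.19 in iPS, 6.40 to 6.48 in the cultures, 5.66 in neonatal and 6.29 in adult. Rpl39 itself was at 5.77 in iPS, 5.20 to 5.58 in the cultures, 5.56 in neonatal and 5.87 in adult, so iPS was not its highest library. Rpl7l1 was at 7.88 in iPS, 6.84, 6.42 and 6.97 in the DMSO, NRG-1 and combined cultures, 7.28 in neonatal and 6.89 in adult, and its partner Rpl7 at 8.35, 7.78, 8.35, 7.70, 8.05 and 8.31 in the same order. Between NRG-1 and DMSO this pair differed in opposite directions, by -0.43 for Rpl7l1 and 0.57 for Rpl7.

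The other paralogs lay in narrow ranges. Rps27l was at 8.85 in iPS and 8.12 to 8.59 elsewhere, while Rps27 was at 7.80 in iPS and up to 8.20, with DMSO. Rpl22l1 was at 5.75 in iPS and 5.29 to 5.54 elsewhere, and Rpl22 at 6.77 and 6.34 to 6.59. Rpl3l, the striated muscle paralog of Rpl3, was below the median of all values in every library, at 4.57 in neonatal, 4.93 in adult, 4.73 to 4.96 in the cultures and 5.19 in iPS. Rpl3 was at 8.51 in iPS and 7.77 to 8.13 elsewhere. The muscle paralog was therefore not measured as higher in any library labelled cardiomyocyte.

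**Figure D4:**
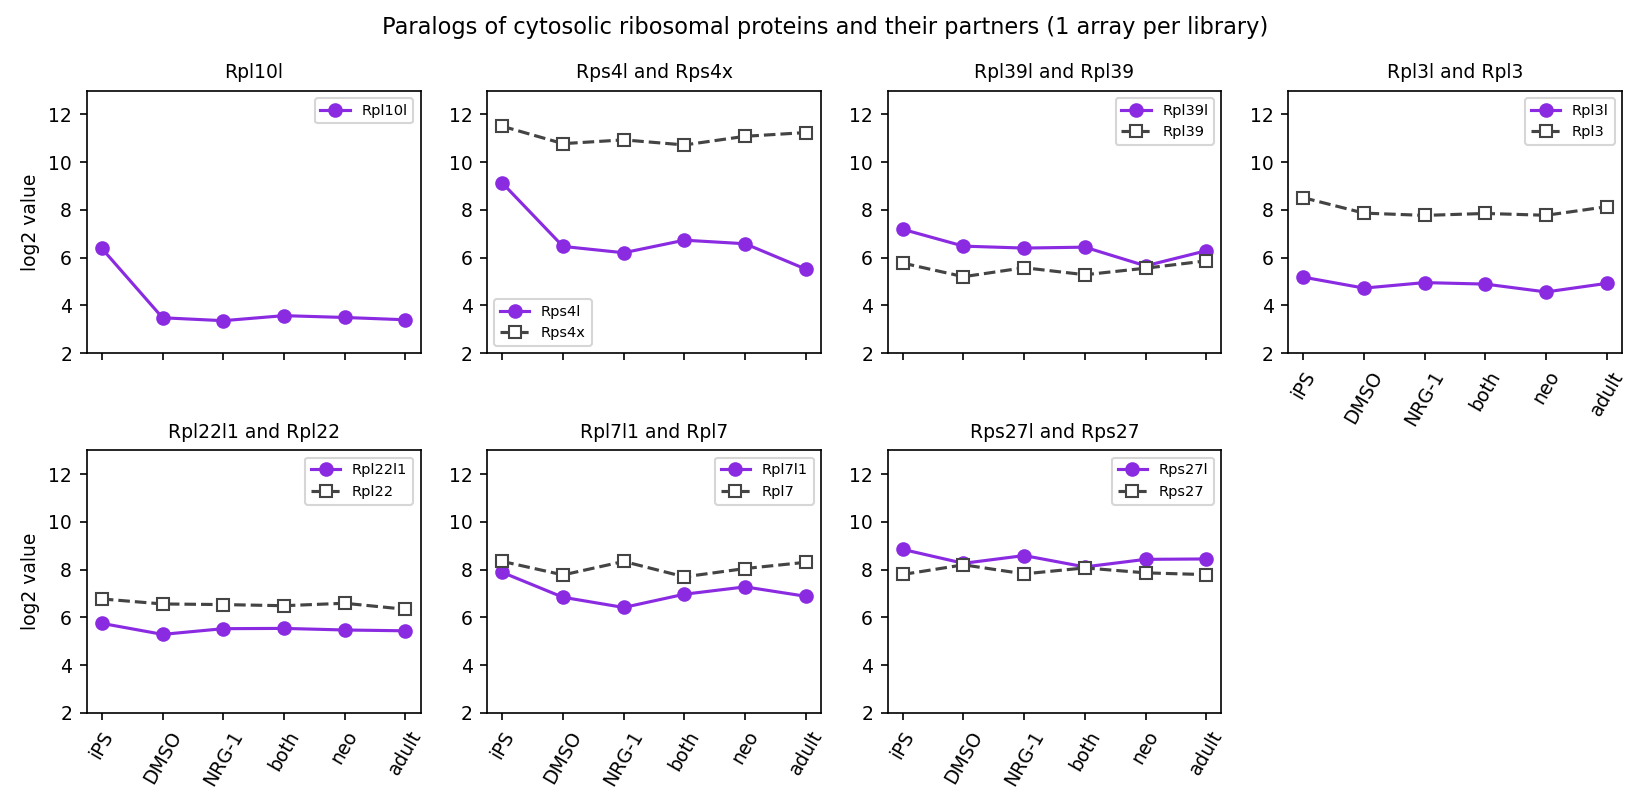
Log2 values (vertical axis) in the 6 libraries of 1 array each (horizontal axis; both, DMSO and NRG-1; neo, neonatal) for 7 paralogs (filled circles) and, where a probe set named it alone, the partner gene (open squares). Rpl10l and Rps4l are highest in iPS by more than 2 log2 units; heights of different genes are not compared, since they rest on different probes.

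Some cytosolic members went against their class. Rps27 was 0.40 higher with DMSO than in iPS and 0.27 higher with both agents. Rpl19 was at 9.31 in iPS and 9.46, 9.47 and 9.38 in the DMSO, NRG-1 and combined cultures. Rps3 was highest in neonatal at 10.99, against 10.74 in iPS, and Rps13 highest in adult at 9.44, against 9.31 in iPS. Probe sets shared with other genes did not repeat all of this: the one of Rps27 and Rps27rt was 0.04 higher with DMSO than in iPS, and the one of Snord15b and Rps3 was lowest in neonatal, at 11.23. None of the 4 genes reached 1.5-fold above iPS. In neonatal minus iPS 1 cytosolic member did, Rpl29 (21.2% of genes), and in NRG-1 minus iPS another, Rpl38 (21.0% of genes).

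In the mitochondrial class the widest range was that of Mrpl42, whose ACTACAANT match is shown above. It was at 8.59 in iPS, 6.28 with DMSO, 6.95 with NRG-1, 6.54 with both, 7.43 in neonatal and 7.21 in adult, so every other library was at least 2-fold below iPS. Mrpl15 was at 8.98 in iPS, 7.23, 7.43 and 7.07 in the DMSO, NRG-1 and combined cultures, 8.12 in neonatal and 7.43 in adult. Mrps27, which binds RNA through pentatricopeptide repeats and carries the reversed ETS core shown above, was at 8.20 in iPS, 6.83, 6.52 and 6.86 in the cultures, 7.45 in neonatal and 7.18 in adult. In these genes the cultures lay at or below the heart libraries.

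Mrpl13 separated the cultures from all other libraries. It was at 7.93 in iPS, 7.90 in neonatal and 7.90 in adult, against 6.44 with DMSO, 6.99 with NRG-1 and 6.50 with both. Mrps15, at 9.68 in iPS, 9.93 in neonatal and 9.69 in adult, was between 8.78 and 8.95 in the cultures. Mrps24, Mrps31 and Mrpl45 had the other order, with both heart libraries below the cultures and adult lowest, and in Mrpl34, at 9.18 in iPS, 8.01 to 8.24 in the cultures, 8.23 in neonatal and 7.80 in adult, only adult lay below the cultures. Mrps24 was at 9.62 in iPS, 8.40 to 8.64 in the cultures, 8.32 in neonatal and 8.14 in adult. Mrps31 was at 9.03 in iPS, 7.86 to 8.32 in the cultures, 7.68 in neonatal and 7.56 in adult. Mrpl45, a protein at the membrane side of the large subunit whose NRF1 match is shown above, was at 8.34 in iPS, 7.28 to 7.77 in the cultures, 7.11 in neonatal and 6.89 in adult.

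**Figure D5:**
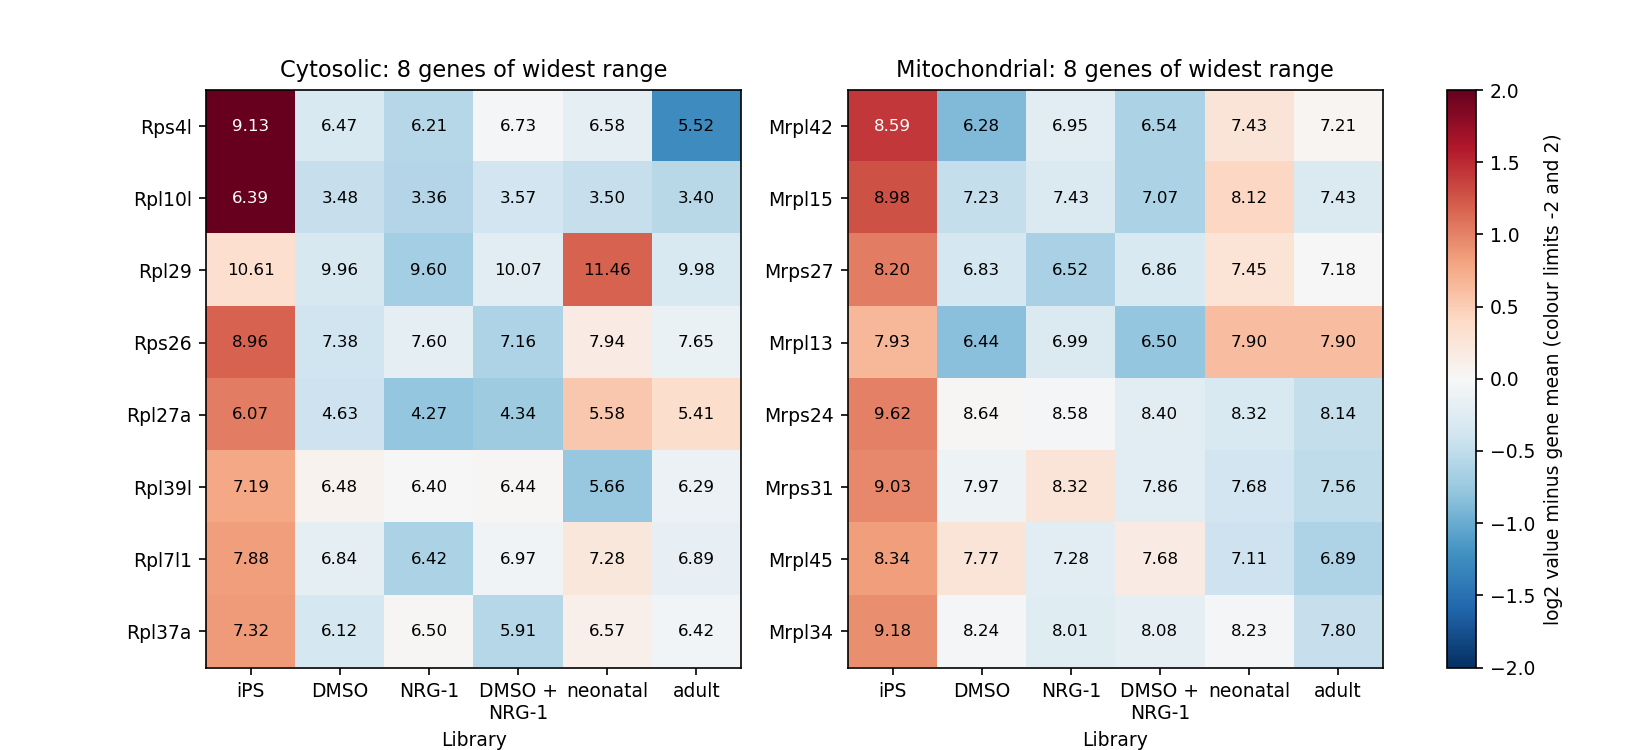
Colours show the log2 value minus the gene's mean over the 6 libraries, limited to -2 and 2, for the 8 cytosolic (left) and 8 mitochondrial (right) genes of widest range among those above the median of all values in at least 1 library, and the printed numbers are log2 values. The iPS column is the highest in every gene except Rpl29, where neonatal is.

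A few mitochondrial members were highest in the cultures and lowest in adult. Mrpl27 was at 4.64 in iPS, 5.51, 5.29 and 5.59 in the DMSO, NRG-1 and combined cultures, 5.38 in neonatal and 4.45 in adult, a dim gene and the only mitochondrial member 1.5-fold above iPS with DMSO (22.7% of genes). Mrps7 was at 8.37 in iPS, 8.77 to 8.82 in the cultures, 8.41 in neonatal and 8.08 in adult. Mrps23 was at 7.89 in iPS, 8.17 to 8.24 in the cultures, 8.15 in neonatal and 7.83 in adult. Mrpl14 was at 6.45 in iPS, 6.70 to 6.91 in the cultures, 6.60 in neonatal and 6.24 in adult. Adult cells had higher values than iPS in Mrpl54, by 0.37, in Mrps21, by 0.31, and in Mrpl52, by 0.27.

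Between adult and neonatal cells, Mrpl35 was at 7.59 and 8.60, Mrpl55 at 7.15 and 7.92 and Mrpl18 at 8.59 and 9.31. Mrpl20 was the largest difference in the other direction, at 7.96 in adult and 7.22 in neonatal. Mrpl12, which binds the mitochondrial RNA polymerase, was lowest in adult at 6.23, against 6.70 to 6.94 in the other 5 libraries. Its iPS value was the highest of the 6.

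The agents were compared with each other. NRG-1 alone gave higher values than DMSO alone in 44 of 67 cytosolic and 45 of 68 mitochondrial members, with medians of 0.15 and 0.08 against -0.01 for all genes, of which 51.8% were lower. With equal housekeeping medians they were -0.30 and -0.37, but that shift moves every gene of a library alike and put the median of all genes at -0.46. The shift itself was uncertain: the median level of the 19 housekeeping genes was 0.45 higher with NRG-1, whereas the median of their own differences was -0.11, with 8 above and 11 below 0. The direction of the class medians is therefore given only relative to all genes. At 2-fold, 1 of 62 cytosolic members, Rps13, was higher (0.360% of genes) and none lower (1.78%), and no mitochondrial member passed in either direction. At 1.5-fold, 3 of 62 cytosolic and 2 of 67 mitochondrial members were higher (3.20% of genes), and 1 mitochondrial member was lower (7.01%).

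Rps13 was at 8.36 with DMSO and 8.37 with both agents, against 9.41 with NRG-1, 9.31 in iPS, 9.08 in neonatal and 9.44 in adult. Rpl38, known for its role in translating Hox mRNAs in the mouse embryo, was at 12.40 with NRG-1 and between 11.28 and 11.53 in the other 5 libraries. Rps20 was at 6.37 with NRG-1 and 6.36 in iPS, 5.72 with DMSO, 5.61 with both, 5.18 in neonatal and 5.55 in adult. Its 2 probe sets differed, one by 1.12 and the other by 0.17 between NRG-1 and DMSO. Rps13 and Rpl38 each rested on 1 probe set. The 3 probe sets that Rps13 shares with other genes were also higher with NRG-1 than with DMSO, by 0.53 to 1.42.

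Mitochondrial members differed less between the agents. Mrpl42 was 0.68 and Mrps16 0.67 higher with NRG-1 than with DMSO, and Mrpl38 was 0.68 lower, at 8.29 against 8.97. Mrps16 was at 7.25 with NRG-1, 6.58 with DMSO and 6.60 with both. Mrpl45, Mrpl49 and Mrpl50 were 0.48 to 0.49 lower with NRG-1.

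The culture given both agents lay close to the one given DMSO. Its cytosolic median against DMSO was -0.03 and its mitochondrial median -0.05, beside -0.008 for all genes, with no member that passed the filter 2-fold apart (0.0455% of genes higher and 0.0530% lower) or 1.5-fold apart (0.727% higher and 0.765% lower). Against NRG-1 alone the medians were -0.09 and -0.11, beside 0.008 for all genes. With equal housekeeping medians they were 0.23 and 0.20, where the median of all genes became 0.32. That shift moves every gene of a library alike, so it cannot change where a class lies relative to all genes. Rps13 was 1.04 lower than with NRG-1 (1 of 62 cytosolic members, with 0.293% of genes 2-fold lower), Rpl38 0.89 lower and Rps20 0.75 lower. The NRG-1 library enters both comparisons, so these values and those against DMSO are not independent. How much of them belongs to the agent and how much to that 1 array cannot be told apart.

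Genes that build and use ribosomes were taken from lists of known components. Of 36 measured ribosome assembly genes, 33 were lower with DMSO than in iPS (50.2% of all genes), with a median of -0.83. At least 2-fold lower were 14 (13.3% of genes). In adult cells all 36 were lower (51.3% of all genes), with a median of -0.92 and 15 at least 2-fold lower (14.1% of genes). In neonatal cells 31 were lower (53.6% of all genes), with a median of -0.64 and 1 at least 2-fold lower, below the background of 11.2%. Dkc1, the pseudouridine synthase of box H/ACA particles, was at 10.09 in iPS, 7.09 with DMSO, 6.31 with NRG-1, 7.20 with both, 9.28 in neonatal and 8.61 in adult. Sbds, which helps to release Eif6 from the large subunit, was 0.75 higher with DMSO than in iPS. The nucleolar genes Ncl and Npm1 were at 11.59 and 9.98 in iPS and at 10.49 and 9.10 with DMSO.

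Cytosolic translation factors were nearer to all genes. Their median over 34 genes was -0.33 with DMSO, -0.35 with NRG-1, -0.38 with both, -0.19 in neonatal and -0.31 in adult, always against iPS. Eif2s2, the beta subunit of the initiation factor that brings the initiator tRNA, was lowest in the list for each of these, at 9.57 in iPS and 7.11 to 8.26 elsewhere. Tpt1, an abundant mRNA with a pyrimidine tract, was at 10.46 with NRG-1 and 9.62 to 10.04 elsewhere.

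Mitochondrial translation and transcription genes lay as low as the mitochondrial ribosome. Over 38 measured genes the median against iPS was -0.62 with DMSO, -0.74 with NRG-1, -0.61 with both, -0.35 in neonatal and -0.62 in adult, with 8, 12, 9, 4 and 9 genes at least 2-fold lower, against 13.3%, 14.5%, 13.1%, 11.2% and 14.1% of all genes. The neonatal count was near that background. Tfb1m, which methylates the small rRNA of the mitochondrial ribosome, was at 8.47 in iPS and 6.03 to 6.96 elsewhere. Of 6 further mitochondrial ribosome proteins with other kinds of names, such as Dap3 and Ptcd3, 5 were lower with DMSO than in iPS (median -0.26). Against iPS, 5 were lower with both agents (median -0.16), 5 in neonatal (median -0.30) and all 6 in adult (median -0.76). With NRG-1 only 3 were, with a median of 0.01. Of all genes, 50.1% to 53.6% were lower in these comparisons. Fau, the only further cytosolic ribosome gene measured, was 0.29 higher with DMSO than in iPS and 0.58 lower in neonatal.

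Regulators of ribosome production did not share one direction. Myc, an activator of ribosome genes, was at 7.91 in iPS, 7.82 to 8.40 in the cultures, 9.48 in neonatal and 9.50 in adult, whereas Mycn was at 7.41 in iPS and 5.33 to 6.57 elsewhere. Ppargc1a, a coactivator of mitochondrial biogenesis, was at 3.47 in iPS, 7.22 with DMSO, 5.48 with NRG-1, 6.42 with both, 4.96 in neonatal and 3.66 in adult. Nrf1 was at 8.28 in iPS and 7.33 to 7.56 elsewhere, and Gabpa at 9.27 and 8.40 to 8.57, so both were lower in the other 5 libraries. Their part in the values of either class was not tested. Yy1 was at 9.21 in iPS and 9.56 to 10.01 in the cultures. The translation repressors Eif4ebp1 and Eif4ebp2 were highest in iPS, at 10.94 and 10.04.

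Members with and without a motif were compared by their medians. With DMSO against iPS, 19 cytosolic members with the pyrimidine tract had a median of -0.46 and 33 without it one of -0.61, and in adult against iPS the medians were -0.24 and -0.43. With DMSO against iPS again, the 10 cytosolic members with the NRF1 motif were at -0.81 and the 42 without it at -0.49, while the 23 with the ETS core were at -0.54 and the 29 without it at -0.50. Among mitochondrial members with DMSO the NRF1 order was turned: the 13 with the NRF1 motif had a median of -0.27 and the 46 without it -0.67. With the longer NRF1 form, seen before the motif was shortened, the medians of members with it were closer between the classes. The 20 mitochondrial members with the ETS core were at -0.45 and the 39 without it at -0.68. Those with the YY1 motif lay the other way, at -0.95 over 7 members against -0.60 over 52. The quartiles of the groups overlapped, for example from -0.56 to -0.18 with and -0.89 to -0.40 without the tract. No test of these differences was made.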

How the data were processed

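Total RNA from each of 6 samples was hybridised to 1 Affymetrix array. The authors deposited log2 values of 41345 probe sets, made with RMA (background correction, quantile normalization and probe set summary) per the submitters' processing notes. The software, its version and the genome build were not given in the sources used here. Quantile normalization equalises the arrays, so a difference is relative to all other probe sets, and a global change in RNA content cannot be seen.

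Groups came from sample titles. Genes were named from the platform annotation: 23521 probe sets carried 1 symbol, 1814 several and 16010 none, and 23328 of the first kind matched a RefSeq identifier. A gene's value was the mean over its single-symbol probe sets (108 for the cytosolic and 75 for the mitochondrial class). Differences of log2 values were computed for 9 comparisons. A gene passed in a comparison where the higher value was at least 5.20, the median of all values, and was counted at 2-fold and 1.5-fold. With 1 library per group no test was made, and 1 array per group sets the precision. The procedure was tested on simulated data. The members, lists, motifs and comparisons were chosen with earlier results of these data known. Genes named were, per class, the 4 with the largest difference each way in a comparison, the 8 of widest range, the stalk genes, Rpsa, the paralogs with their partners, and up to 3 genes each way of every other list; Rps6, Rps18, Rps23, Rpl28, Mrpl12, Mrpl48, Mrps15, Npm1, Ncl and the regulators beyond these were chosen after their values were seen.

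Of the genes sought, 12 cytosolic and 7 mitochondrial ones were on probe sets shared with other genes only, and 7 cytosolic ones were on none, so these were not analysed here. Alternatives were other filters, the brightest probe set, cyclic loess (limma 3.58.1 in R 4.3.3), equal medians of 19 housekeeping genes, members passing the filter and members without paralogs. Counting identical probe sets once and leaving out the members that RefSeq lists as pseudogenes (Rps4l and Rpl6l) were added after seeing the data. Promoters were RefSeq windows of build GRCm38.p6. The NRF1 motif and ACTACAANT were shortened after values with longer forms of both had been seen, which changed the shares of windows and the medians of members with and without them. Computation used Python 3.11.15 with pandas 2.3.3, numpy 2.4.6 and matplotlib 3.10.9.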

Additional observations from a re-analysis of the deposited data

How the results depend on the processing

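No paired analysis was possible because each group was 1 library. Values below are counts of members at least 2-fold apart or class medians, and the cause of a change was not tested unless stated. The share of all genes was not computed under these other settings. A changed count therefore cannot be told from a change that all genes share. Equal housekeeping medians shift every gene of a library alike, by construction: the mitochondrial median became 0.024 in neonatal minus iPS and -0.37 in NRG-1 minus DMSO, the cytosolic one -0.30 in NRG-1 minus DMSO, and both agents minus NRG-1 gave 0.23 (cytosolic) and 0.20 (mitochondrial). Cytosolic counts became 3 in adult minus iPS, 4 in DMSO minus iPS, 0 in NRG-1 minus DMSO and 0 in both agents minus NRG-1. Mitochondrial counts became 1 in neonatal minus iPS, 2 in adult minus neonatal, 4 in DMSO minus iPS, 8 in both agents minus iPS and 1 in NRG-1 minus DMSO. With a filter at the 75th percentile (6.93), fewer genes were counted, and cytosolic counts were 3 in neonatal minus iPS, 1 in adult minus neonatal and 5 in both agents minus iPS. With no filter, both agents minus DMSO counted 1 (Rpl32l). The cytosolic median of adult minus neonatal, -0.002, turned to 0.0068 over members passing the filter, 0.014 without the paralogs and 0.033 with the brightest probe set, which also counted 2 cytosolic members in NRG-1 minus DMSO and 2 in both agents minus NRG-1. Without the members that RefSeq lists as pseudogenes, adult minus neonatal counted 1 cytosolic member, and under cyclic loess 0 mitochondrial ones. Counting identical probe sets once changed none of its 38 results in this way. The 1 array per group, signal shared with pseudogenes and disagreement between probe sets limit all values. Differences under the spread between probe sets of 1 gene were not resolved.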

Other observations

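Probe sets that could not be assigned to 1 member were left out of the class counts and medians. Of 57 probe sets that list a cytosolic ribosomal protein together with other genes, 47 were lower with DMSO than in iPS (50.2% of all genes). Their median difference was -0.46, with a range from -3.64 to 0.52. Of the 56 that passed the filter 9 were at least 2-fold lower, near the 13.3% of genes. In neonatal and adult cells their medians against iPS were -0.44 and -0.40, and in adult minus neonatal 0.17. Of 13 such mitochondrial probe sets, 7 were lower with DMSO than in iPS, near the 50.2% of all genes, with a median of -0.13. The 15 probe sets named for a single ribosomal protein pseudogene had medians between -0.13 and 0.21 over the 9 comparisons, and none was 2-fold apart in any of them. Rps15a-ps6, chosen after its values were seen, was at 6.55 with DMSO and 6.49 with both agents, against 5.36 to 5.62 in the other 4 libraries.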
